A study of Mus musculus with 20 samples.

Results

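The antigen presentation genes described here are 31 mouse genes, all matched to a row among the 49585 gene IDs of the count table through their Ensembl IDs. They are listed by name for their function: 16 class I genes, 5 immunoproteasome genes and 10 class II genes. The rule uses no measured value, but the list was chosen with earlier results of these data known. Bulk RNA sequencing of total RNA measured them in 18 primary bone tumours (osteosarcomas) taken from mice of mixed strain, C57BL/6J and 129S/SvJae, and in a line of cultured tumour cells, cell line 14. The tumours came from p53+/- mice, with 1 lost and 1 wild-type allele of Trp53 (p53 het, n = 4), and from mice with a missense allele beside the wild-type allele: p53R172H/+ (R172H, n = 6), p53R245W/+ (R245W, n = 3) and p53R270H/+ (R270H, n = 5). Every tumour genotype therefore began with 1 wild-type allele, and the labels do not say which tumours kept it, nor give the site of a tumour or the age and sex of a mouse. The line is labelled p53R245/O with loss of the other allele, and was sequenced once as the control and once after p53 siRNA knockdown. The comparisons ask whether these genes differ between tumours with a missense p53 and tumours with a lost allele, between the 3 missense alleles, and with less p53 mRNA in the line.

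Class I molecules show peptides from inside the cell to CD8 T cells. Peptides cut by the proteasome, whose interferon-inducible form is the immunoproteasome, are carried into the endoplasmic reticulum by the transporter Tap1/Tap2, trimmed, and loaded on a heavy chain paired with beta-2 microglobulin (B2m), and Nlrc5 is the transactivator of these genes. Class II molecules, made mainly by macrophages, dendritic cells and B cells, show peptides from endosomes to CD4 T cells, with Cd74 as invariant chain and Ciita as the master transactivator. In a bulk tumour, fewer cells of a type and less RNA per cell cannot be told apart.

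Sequencing depth, as the sum of counts, was 20.1 to 29.2 M in the tumours, 64.1 M in the control library of the line and 73.4 M in its siRNA library, where M stands for megacounts. Osteoblast markers (Runx2, Sp7, Bglap, Ibsp, Col1a1 and Alpl) were above the limit of 3 counts in all 18 tumours, as were 11 of 11 macrophage markers, 6 of 6 endothelial markers, 6 of 8 dendritic cell markers, 3 of 5 B cell markers and 2 of 11 T and NK cell markers. Trp53 itself read 13.5 to 26.98 CPM (counts per megacount of the library) in p53 het, 36.3 to 71.3 in R172H, 57.5 to 74.0 in R245W and 26.5 to 53.2 in R270H tumours. The sample titles come in 2 kinds. A serial number stands in the titles of every R172H and R245W tumour and of p53 het 1 and 2 (11 libraries), and in none of the titles of R270H tumours and p53 het 3 and 4 (7 libraries). What the kind of title stands for is not given, so R270H against R172H or R245W cannot be told apart from the kind of title.

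Upstream sequences are shown for some of the members whose levels moved with Nlrc5 or Ciita across the tumours, described further on. Ctss, which did not pass the test with Ciita, is also shown. They are the 200 bases before the start site in the RefSeq promoter table of build GRCm38.p6, 5′ to 3′ on the gene's strand. Capitals mark matches, on either strand, to ATTGG, the core of the Y box, a promoter element that class I and class II genes share.
H2-K1, chr17:34000334-34000533, minus strand: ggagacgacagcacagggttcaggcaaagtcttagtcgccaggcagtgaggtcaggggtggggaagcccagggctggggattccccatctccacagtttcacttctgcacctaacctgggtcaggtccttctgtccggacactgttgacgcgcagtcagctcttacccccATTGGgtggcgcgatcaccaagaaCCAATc
B2m, chr2:122147487-122147686, plus strand: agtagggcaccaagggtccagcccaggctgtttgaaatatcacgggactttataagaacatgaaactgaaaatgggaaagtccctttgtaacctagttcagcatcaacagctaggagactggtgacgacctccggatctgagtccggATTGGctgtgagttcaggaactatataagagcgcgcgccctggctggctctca
H2-Q4, chr17:35379417-35379616, plus strand: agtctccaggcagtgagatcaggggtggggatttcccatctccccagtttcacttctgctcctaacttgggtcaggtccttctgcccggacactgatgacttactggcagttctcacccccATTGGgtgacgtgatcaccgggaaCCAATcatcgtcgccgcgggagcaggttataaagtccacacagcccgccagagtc
H2-Q7, chr17:35438955-35439154, plus strand: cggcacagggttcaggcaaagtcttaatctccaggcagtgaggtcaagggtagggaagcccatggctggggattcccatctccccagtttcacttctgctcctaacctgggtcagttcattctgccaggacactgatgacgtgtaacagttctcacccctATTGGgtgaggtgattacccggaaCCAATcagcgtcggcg
H2-Aa, chr17:34287824-34288023, minus strand: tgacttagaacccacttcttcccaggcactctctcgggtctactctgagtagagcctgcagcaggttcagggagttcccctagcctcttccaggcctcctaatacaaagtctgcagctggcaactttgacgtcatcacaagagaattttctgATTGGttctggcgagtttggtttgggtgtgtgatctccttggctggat
H2-Eb1, chr17:34305667-34305866, plus strand: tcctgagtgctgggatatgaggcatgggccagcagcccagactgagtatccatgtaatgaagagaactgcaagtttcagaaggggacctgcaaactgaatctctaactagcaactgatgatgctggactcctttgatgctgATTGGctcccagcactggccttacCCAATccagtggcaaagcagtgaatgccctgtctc
H2-DMb1, chr17:34152991-34153190, plus strand: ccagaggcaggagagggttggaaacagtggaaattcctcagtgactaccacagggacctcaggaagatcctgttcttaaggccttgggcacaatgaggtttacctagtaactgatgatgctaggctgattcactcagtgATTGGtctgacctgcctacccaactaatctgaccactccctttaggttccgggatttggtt
Ctss, chr3:95526586-95526785, plus strand: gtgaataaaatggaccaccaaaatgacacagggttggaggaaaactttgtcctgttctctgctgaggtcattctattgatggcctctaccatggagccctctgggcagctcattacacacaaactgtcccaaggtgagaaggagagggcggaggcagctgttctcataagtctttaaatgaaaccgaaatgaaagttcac

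Of the 31 members, 24 had a window of 300 bases in that table. ATTGG was in 18 of their 27 windows (17 of the 24 genes) and in 37.4% of all 32851 windows. The member windows are not independent. Those of Tap1 and Psmb9 overlap on opposite strands and hold the same site, and both windows of H2-K1 overlap. The windows of H2-K1, H2-D1, H2-Q4, H2-Q6 and H2-Q7 also resemble each other in sequence. H2-K1, H2-Q4, H2-Q7 and H2-Eb1 hold ATTGG on both strands in the bases shown, and Ctss does not hold it. H2-DMa, which passed with Ciita and is not shown, lacks ATTGG in its window from chr17:34122582 and holds it in that from chr17:34125268. H2-M3, Tapbp and H2-Oa hold it in their windows and did not pass with Nlrc5 or Ciita. Erap1, Psmb8, Psmb10, Psme1, Psme2 and Ifi30 neither hold it in their windows nor passed. Whether ATTGG goes with these correlations was not tested. These matches are descriptions of letters and say nothing of binding.

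No member passed the test between a missense genotype and p53 het, and 2 of 31 passed between R270H and R172H tumours (6.45%, against 5.28% of all genes, a share near the background). Compared with R172H, R270H tumours had lower Tap2, 1 of the chains of the peptide transporter, and higher Cd1d1, a class I-like molecule that shows lipids to NKT cells. All 31 members passed the filter on low counts and were tested with 20616 genes by edgeR's quasi-likelihood test, with p-values adjusted by Benjamini-Hochberg over all genes and a threshold of 0.05. Folds are log2 fold ± SE, first group minus second. A test for any difference between the 4 genotypes passed for 0 of 31 members, against 2.86% of all genes, and the members with the lowest adjusted p were Cd1d1 (0.0830) and Tap2 (0.0864). At an unadjusted p under 0.05 these were 2 of 31 members (6.45%), against 22.1% of all genes.

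**Figure D1:**
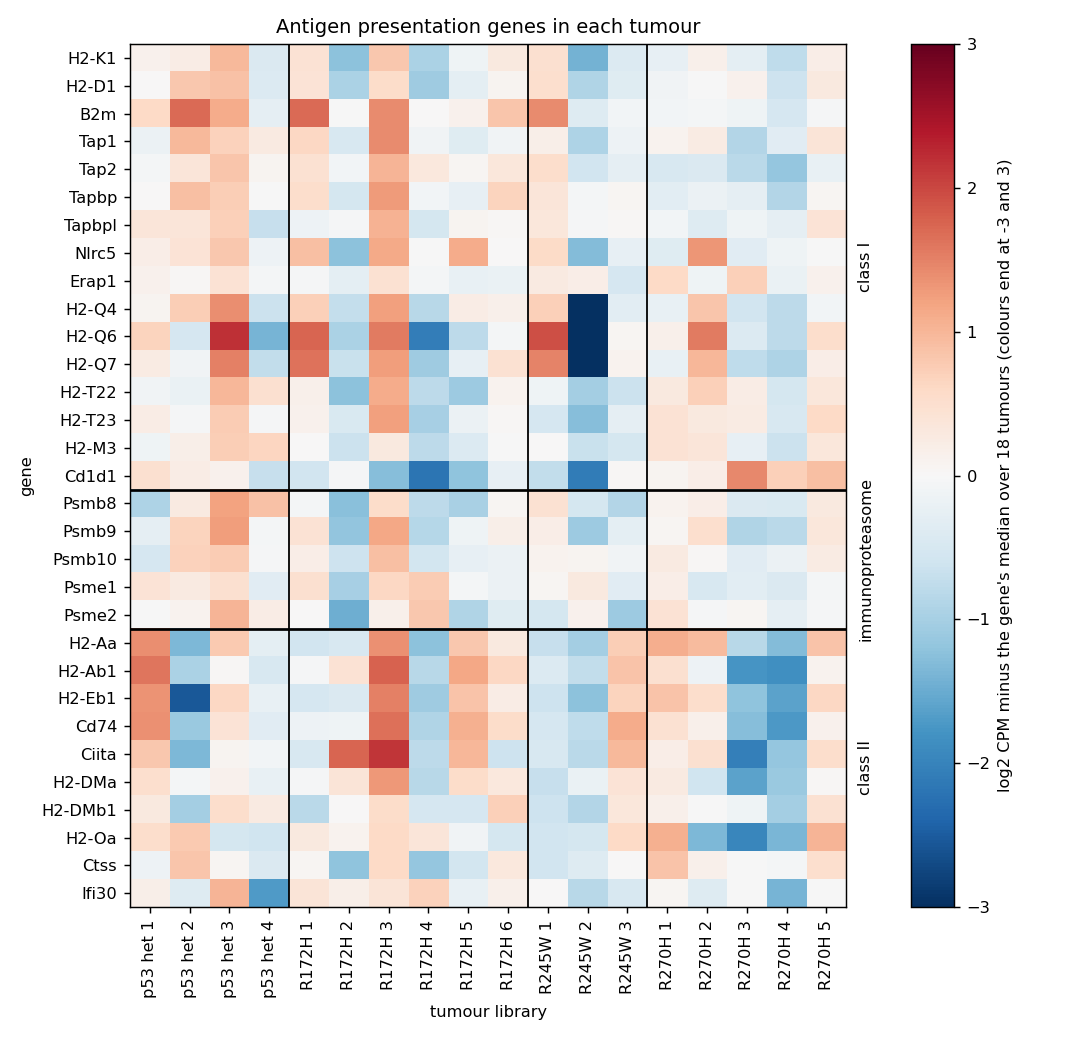
Level of each member in each tumour library as log2 CPM minus the gene's median over the 18 tumours (colour scale from -3 to 3), with tumours in columns by genotype and genes in rows by class. R172H 3 held the highest value of 15 members and R245W 2 the lowest of 9, while no genotype is of 1 colour throughout.

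Spread within a genotype was wide and followed single tumours. R172H 3 had the highest level of 15 of the 31 members among the 18 tumours, 7 members were highest in p53 het 3, and R245W 2 had the lowest level of 9. Summed class I counts ran from 2576 to 5773 CPM in p53 het, 2321 to 6525 in R172H, 1696 to 5649 in R245W and 2091 to 3687 in R270H tumours. Summed class II counts ran from 762.5 to 2395 CPM, 831.4 to 3240 CPM, 708.7 to 1971 CPM and 576.1 to 1956 CPM in the same order, and the 5 immunoproteasome genes from 104.9 to 366.6 CPM over all tumours. The genotypes overlapped in each of these sums. The SD of the class mean between tumours of a genotype, on the log2 CPM scale, was 0.595 for class I, 0.475 for the immunoproteasome and 0.708 for class II. R172H 3 also had the highest Ptprc, the pan-leukocyte marker, at 271.7 CPM. Summed osteoclast markers (Acp5, Ctsk, Calcr, Oscar, Ocstamp and Dcstamp) were 105.9 CPM in p53 het 4, 133.3 in R270H 4, 342.6 in R245W 2 and 802.7 in p53 het 2. They were 2810 to 7718 CPM in all others, among them R270H 3 and R172H 2, lowest for 5 and 4 members. Summed skeletal muscle markers were highest in p53 het 4, at 1667 CPM. The part of these tissues was not tested.

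Heavy chains and their partner come first. H2-D1 and H2-K1 are the classical class I heavy chains (H2-D1 chr17:35262730-35267499, H2-K1 chr17:33996017-34000347, GRCm38). H2-D1 read 756, 1190, 1388 and 633 CPM in p53 het 1 to 4 and 1153, 411 and 634 CPM in R245W 1 to 3. R172H tumours ran from 410.3 to 1230 CPM (median 733), and R270H 1 to 5 read 774, 869, 774, 528 and 992 CPM. H2-K1 ran from 229 CPM in R245W 2 to 1174 CPM in p53 het 3. All 4 groups overlapped in both genes, and R245W 2, R172H 2 and R172H 4 were low in both. B2m (chr2:122147686-122153083) is the light chain every class I molecule needs. B2m read 1400, 2748, 2039 and 865 CPM in p53 het 1 to 4 and 2687, 732 and 949.9 CPM in R245W 1 to 3. In R172H the lowest, median and highest were 1076, 1379 and 3245 CPM, beside 972, 1044, 799, 714 and 981 CPM in R270H 1 to 5. The 5 R270H tumours lay within 714 to 1044 CPM, below all 6 R172H tumours, while the highest tumours of p53 het, R172H and R245W read 2748, 3245 and 2687 CPM.

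H2-Q6 and H2-Q7, non-classical heavy chains of the Qa region, had the widest spread of the 30 members with a count in every tumour, at 124.7-fold and 43.95-fold from the lowest to the highest tumour. They read 1.502 and 3.01 CPM in R245W 2, and up to 187.4 CPM (H2-Q6, p53 het 3) and 132.1 CPM (H2-Q7, R172H 1) in others. H2-Q4 read 6.47 CPM in R245W 2 and 33.0 to 138.8 CPM in the other 17 tumours. R245W 2 thus had little RNA of all 3 Q genes while R245W 1 stood near the top, at 91.8, 167 and 119 CPM for H2-Q4, H2-Q6 and H2-Q7. These genes share sequence: 32.0% of the 50-base stretches in H2-Q6 transcripts, 26.4% in H2-Q7 and 21.8% in H2-Q4 occur in another gene, so their counts may be split between copies. H2-T22, a ligand of gamma-delta T cells, read 40.5, 34.6, 88.0 and 67.8 CPM in p53 het 1 to 4 and 43.1, 22.2 and 30.1 CPM in R245W 1 to 3. R270H 1 to 5 read 59.2, 84.2, 47.9, 32.9 and 59.2 CPM, and R172H tumours 21.9 to 106 CPM around a median of 36.9. H2-T22 was highest in R172H 3, shares 31.2% of its 50-base stretches with H2-T10, and an antisense gene covers 29.4% of its exons. H2-T23, which encodes Qa-1 and presents leader peptides to NK cell receptors, read 48.8, 37.3, 71.4 and 46.1 CPM in p53 het 1 to 4 and 32.0, 18.03 and 38.0 CPM in R245W 1 to 3. The R172H median was 42.2 CPM (lowest 24.3, highest 110.2), and the R270H values were 63.2, 60.6, 47.6, 32.9 and 69.3 CPM. H2-M3, which presents formylated peptides, read 11.9, 13.4, 22.1 and 22.9 CPM in p53 het 1 to 4 and 14.2, 8.47 and 9.85 CPM in R245W 1 to 3. For R270H the values were 19.6, 19.8, 10.4, 9.09 and 18.1 CPM, and for R172H they spanned 8.66 to 17.8 CPM with 11.9 as median. All 3 R245W tumours lay at or below 38.0 CPM of H2-T23 and 14.2 CPM of H2-M3, and R245W 2 was the lowest of the 18 tumours in both.

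Tap1 and Tap2 together form the peptide transporter, and tapasin (Tapbp) bridges it to the heavy chain. Tap1 read 44.0, 88.8, 80.1 and 66.7 CPM in p53 het 1 to 4 and 60.4, 27.1 and 48.8 CPM in R245W 1 to 3. Tap1 spanned 42.0 to 147 CPM in R172H, with a median of 48.9, and read 58.7, 69.7, 25.6, 42.6 and 69.8 CPM in R270H 1 to 5. Every group overlapped every other, with the highest value in R172H 3. Tap2 (chr17:34203527-34216321) read 25.99, 32.1, 48.5 and 32.2 CPM in p53 het 1 to 4 and 42.6, 18.9 and 24.6 CPM in R245W 1 to 3. R172H tumours ran from 30.6 to 61.6 CPM (median 36.3), and R270H 1 to 5 read 21.5, 23.7, 14.7, 13.3 and 25.2 CPM. All 5 R270H values of Tap2 lie below all p53 het and all R172H values, and the R245W values overlap those of every other genotype. Tapbp read 116, 195, 193 and 126 CPM in p53 het 1 to 4 and 158, 113.4 and 130.5 CPM in R245W 1 to 3. In R172H the lowest, median and highest were 94.2, 149 and 309 CPM, beside 102, 119.6, 89.3, 68.1 and 128 CPM in R270H 1 to 5. Tapbp overlapped between all genotypes. Tapbpl, a relative of tapasin that edits peptides, ran from 7.43 to 25.1 CPM, the aminopeptidase Erap1, which trims peptides, from 39.9 to 86.6 CPM, and Nlrc5 from 23.7 to 167 CPM. Antisense genes overlap 14.1% of the exon bases of Tap2 and 24.9% of those of Tapbp, and whether reads were counted by strand is not given in the sources used here. Cd1d1 (chr3:86995834-86999441) read 54.0, 41.4, 42.5 and 26.7 CPM in p53 het 1 to 4 and 24.9, 9.38 and 43.3 CPM in R245W 1 to 3. R270H 1 to 5 read 45.1, 52.7, 99.5, 70.1 and 79.0 CPM, and R172H tumours 9.70 to 45.1 CPM around a median of 23.7. R270H values of Cd1d1 start where those of R172H end, and 3 of them exceed every other tumour. Cd1d1 shares 19.1% of its 50-base stretches with the neighbouring copy Cd1d2.

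Psmb8, Psmb9 and Psmb10 are the catalytic subunits of the immunoproteasome, and Psme1 and Psme2 form its PA28 activator. Psmb8 read 21.6, 45.3, 96.4 and 85.1 CPM in p53 het 1 to 4 and 61.2, 29.7 and 24.3 CPM in R245W 1 to 3. The R172H median was 34.5 CPM (lowest 20.5, highest 67.3), and the R270H values were 49.0, 55.6, 28.7, 32.7 and 54.5 CPM. p53 het 3 and 4 were the 2 highest tumours for Psmb8, and p53 het 1 was among the lowest. Psmb9 read 13.7, 23.9, 39.8 and 17.6 CPM in p53 het 1 to 4 and 20.6, 7.97 and 14.6 CPM in R245W 1 to 3. For R270H the values were 19.1, 27.8, 8.26, 10.3 and 22.8 CPM, and for R172H they spanned 8.59 to 41.0 CPM with 17.7 as median. Psmb10 read 21.0, 44.5, 51.4 and 33.0 CPM in p53 het 1 to 4 and 35.0, 33.0 and 30.4 CPM in R245W 1 to 3. Psmb10 spanned 23.3 to 63.2 CPM in R172H, with a median of 27.4, and read 40.4, 36.3, 22.5, 29.2 and 38.7 CPM in R270H 1 to 5. Both genes peaked in R172H 3 and p53 het 3. Psme1 read 63.6, 53, 67.9 and 42.8 CPM in p53 het 1 to 4 and 54.1, 61.4 and 41.6 CPM in R245W 1 to 3. R172H tumours ran from 28.9 to 94.6 CPM (median 62.8), and R270H 1 to 5 read 61.0, 41.1, 36.9, 39.3 and 50.6 CPM. Psme2 read 53.6, 53.6, 111 and 71.3 CPM in p53 het 1 to 4 and 40.9, 62.1 and 27.8 CPM in R245W 1 to 3. In R172H the lowest, median and highest were 23.6, 50.2 and 111 CPM, beside 81.5, 63.0, 54.0, 49.2 and 58.0 CPM in R270H 1 to 5. R172H 4 was high in both PA28 genes and low in Psmb9, so the activator and the catalytic subunits did not rank the tumours alike. Psme2 shares 28.3% of its 50-base stretches with the copy Psme2b.

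Class II chains and their helpers followed another order of tumours. H2-Aa, the alpha chain of I-A, read 373, 51.7, 249 and 130.3 CPM in p53 het 1 to 4 and 96.3, 72.8 and 261 CPM in R245W 1 to 3. R270H 1 to 5 read 336, 323, 76.3, 63.6 and 281 CPM, and R172H tumours 70.0 to 410.0 CPM around a median of 145. H2-Ab1, its beta chain, read 489, 76.0, 167 and 130.2 CPM in p53 het 1 to 4 and 131, 101 and 319 CPM in R245W 1 to 3. The R172H median was 250.2 CPM (lowest 105, highest 620.2), and the R270H values were 250.1, 170.5, 45.0, 49.4 and 187 CPM. In R172H both were highest in R172H 3, and R270H 3 and 4 were low in both. H2-Eb1, the beta chain of I-E, ran from 17.4 CPM in p53 het 2 to 352 CPM in R172H 3. Cd74, the invariant chain, read 826, 136, 429 and 285 CPM in p53 het 1 to 4 and 248, 198 and 762 CPM in R245W 1 to 3. For R270H the values were 487, 422, 126, 106 and 384 CPM, and for R172H they spanned 199 to 1140 CPM with 402 as median. Ciita (chr16:10480059-10528418) read 23.7, 4.82, 14.3 and 14.2 CPM in p53 het 1 to 4 and 10.4, 7.97 and 28.9 CPM in R245W 1 to 3. Ciita spanned 8.47 to 67.1 CPM in R172H, with a median of 20.7, and read 17.0, 22.2, 3.03, 6.59 and 21.0 CPM in R270H 1 to 5. R172H 2 and R172H 3 had 53.6 and 67.1 CPM of Ciita, above all other tumours, and R270H 3 was lowest.

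H2-DMa and H2-DMb1 encode the peptide exchanger of class II. H2-DMa read 21.3, 13.2, 16.7 and 14.3 CPM in p53 het 1 to 4 and 10.1, 13.6 and 21.9 CPM in R245W 1 to 3. R172H tumours ran from 9.74 to 41.7 CPM (median 20.7), and R270H 1 to 5 read 20.2, 11.7, 4.60, 7.62 and 16.7 CPM. H2-DMb1 read 35.6, 13.03, 42.1 and 39.5 CPM in p53 het 1 to 4 and 20.4, 16.4 and 39.8 CPM in R245W 1 to 3. In R172H the lowest, median and highest were 17.7, 29.1 and 47.6 CPM, beside 35.7, 34.1, 25.1, 15.6 and 43.2 CPM in R270H 1 to 5. All groups overlapped in both genes, and H2-DMb1 shares 22.7% of its 50-base stretches with H2-DMb2. H2-Oa, an inhibitor of that exchanger typical of B cells, was at or near the limit of detection, from 0 to 0.615 CPM. Ctss, the cathepsin that removes the invariant chain, read 199, 361, 234 and 184 CPM in p53 het 1 to 4 and 161, 176 and 246 CPM in R245W 1 to 3. R270H 1 to 5 read 442, 290.4, 207, 234 and 341 CPM, and R172H tumours 114 to 374 CPM around a median of 212. Ifi30, a thiol reductase of endosomes, read 143, 88.8, 259 and 43.5 CPM in p53 het 1 to 4 and 138, 73.8 and 99.8 CPM in R245W 1 to 3. The R172H median was 174 CPM (lowest 125, highest 239), and the R270H values were 145, 114, 119, 53.02 and 137 CPM. Neither endosomal enzyme separated any genotypes.

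Between R172H and p53 het tumours no member passed the test, against 0.0776% of all genes (16 genes), and 2 of 31 (6.45%) had an unadjusted p under 0.05, against 12.3%. DESeq2 and limma voom also called 0 members. H2-M3 (-0.61 ± 0.27, adjusted p = 0.372), Cd1d1 (-0.85 ± 0.41, adjusted p = 0.418) and H2-D1 (-0.50 ± 0.36, adjusted p = 0.594) had the lowest p of class I. Psmb8 (-0.83 ± 0.39, adjusted p = 0.403), Psme2 (-0.50 ± 0.35, adjusted p = 0.588) and Psmb10 (-0.30 ± 0.29, adjusted p = 0.718) led the immunoproteasome. In class II they were Ciita (0.91 ± 0.66, adjusted p = 0.604), Ctss (-0.32 ± 0.34, adjusted p = 0.745) and H2-DMa (0.31 ± 0.39, adjusted p = 0.793). The median log2 fold was -0.17 for class I, -0.39 for the immunoproteasome and 0.11 for class II, beside -0.02 for all genes. Folds were below 0 in 13 of 16, 5 of 5 and 3 of 10 members, and in 51.7% of all genes. No member was without overlap between the groups, against 2.15% of all genes. Without 1 library at a time the class I and class II medians took either sign (-0.50 to 0.04 and -0.12 to 0.46), the former above 0 without p53 het 3 and the latter below 0 without p53 het 2, p53 het 4 or R172H 3. That of the immunoproteasome was -0.11 without p53 het 3 and -0.14 with the kind of title as a covariate. With that covariate the class II median was -0.04 and the fold of Psmb8 -0.06.

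Between R245W and p53 het tumours 0 of 31 members passed with edgeR, DESeq2 or limma voom, against 0.0728% of all genes with edgeR (15 genes), and 2 of 31 had an unadjusted p under 0.05, against 12.5%. Folds were below 0 for 30 of 31 members, all but Ciita (0.06), against 52.7% of all genes. The folds of the 31 members are not independent, here or in the other contrasts, as many members moved together in single tumours. R245W 2 held the lowest level of 9 members and p53 het 3 the highest of 7. Medians were -0.53 for class I, -0.76 for the immunoproteasome and -0.38 for class II, beside -0.04 for all genes. The immunoproteasome median was nearer to 0 under some alternatives. It was -0.45 without p53 het 3, -0.32 against p53 het 1 and 2 only and -0.31 with the kind of title as a covariate. Without R245W 2 the medians were -0.24, -0.56 and -0.17, class I was -1.02 without R245W 1 and -0.33 without p53 het 3, and class II -0.04 without p53 het 1 and -0.92 without R245W 3. No member was without overlap between the groups, against 9.11% of all genes. Class I was led by H2-M3 (-0.77 ± 0.33, adjusted p = 0.343), H2-T23 (-0.89 ± 0.42, adjusted p = 0.397) and H2-T22 (-0.93 ± 0.49, adjusted p = 0.443). For the immunoproteasome the lowest p belonged to Psme2 (-0.80 ± 0.43, adjusted p = 0.454), Psmb8 (-0.76 ± 0.48, adjusted p = 0.535) and Psmb9 (-0.83 ± 0.53, adjusted p = 0.538). Ctss (-0.45 ± 0.41, adjusted p = 0.675), Ifi30 (-0.47 ± 0.45, adjusted p = 0.692) and H2-DMb1 (-0.42 ± 0.44, adjusted p = 0.714) led class II. Of the T and NK cell markers 11 of 11 had folds below 0, with a median of -1.94 and 0 past the test, and their summed level was 1.87 to 20.6 CPM in R245W against 13.3 to 67.4 CPM in p53 het. Most lay near the limit of 3 counts, and Cd3e, Cd3g, Cd8a, Ncr1 and Nkg7 read 0 in R245W 2. Against p53 het, folds of these markers were also below 0 for 11 of 11 in R270H (median -0.53) and 9 of 11 in R172H (median -0.60). Summed macrophage markers were 1873 to 2201 CPM against 1960 to 2611 CPM, and their part in the result was not tested.

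Between R270H and p53 het tumours no gene of the 20616 passed with edgeR (0%), and 3 of 31 members (9.68%) had an unadjusted p under 0.05, against 11.5%. DESeq2 and limma voom called 0 members. These were Tap2 (-0.93 ± 0.27, adjusted p = 0.204), B2m (-1.11 ± 0.44, adjusted p = 0.340) and Tapbp (-0.76 ± 0.32, adjusted p = 0.365). Tap2 was the 1 member whose groups did not overlap, against 3.5% of all genes. Psme1 (-0.43 ± 0.29, adjusted p = 0.611), Psmb8 (-0.59 ± 0.41, adjusted p = 0.626) and Psmb9 (-0.57 ± 0.45, adjusted p = 0.672) had the lowest p of the immunoproteasome, and H2-DMa (-0.56 ± 0.40, adjusted p = 0.638), H2-Ab1 (-0.75 ± 0.60, adjusted p = 0.677) and Cd74 (-0.58 ± 0.59, adjusted p = 0.764) of class II. Medians were -0.43, -0.43 and -0.19 for class I, immunoproteasome and class II, beside -0.01 for all genes, and 27 of 31 folds were below 0, against 51.3%. Without p53 het 3 class I was -0.15 and the immunoproteasome -0.21, and the class II median changed sign without p53 het 1 (0.06) or R270H 4 (0.01). The 3 comparisons with p53 het share the same 4 control tumours, so their common direction is not independent. Against p53 het 3 and 4 only, whose titles are of the R270H kind, Tap2 read -1.09 (adjusted p = 0.292) and B2m -0.75 (adjusted p = 0.663). Against p53 het 1 and 2 only they read -0.77 (0.305) and -1.42 (0.230).

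**Figure D2:**
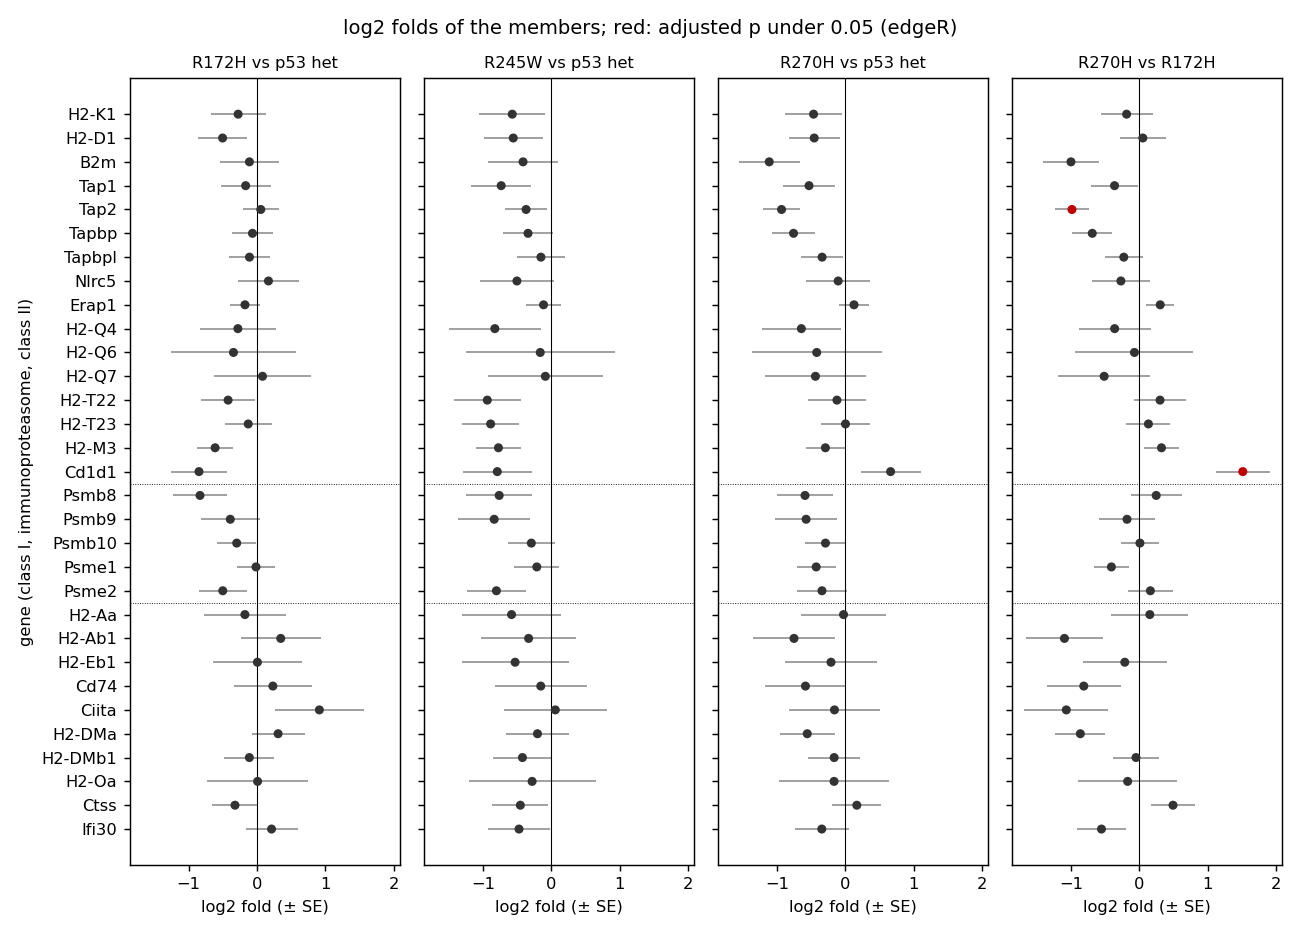
Log2 fold with its SE (edgeR) of every member in 4 contrasts, by class, where red points passed an adjusted p of 0.05. Tap2 at -0.99 and Cd1d1 at 1.51 in R270H against R172H are the points that passed, and in R245W against p53 het all but Ciita lie left of 0.

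Between R270H and R172H tumours 2 of 31 members (6.45%) passed, against 5.28% of all genes (1088 genes). Tap2 was lower in R270H, at 19.7 ± 5.37 CPM (SD, n = 5) against 39.6 ± 11.4 CPM (SD, n = 6), and its fold was -0.99 ± 0.25, adjusted p = 0.0307 with edgeR. Cd1d1 was higher, at 69.3 ± 21.6 CPM against 25.3 ± 12.4 CPM, with 1.51 ± 0.39, adjusted p = 0.0351. Neither gene overlapped between the groups in CPM, nor did B2m (-1.001 ± 0.41, adjusted p = 0.150): 3 of 31 members (9.68%), against 6.72% of all genes. Tapbp (-0.69 ± 0.29, adjusted p = 0.163) and H2-DMa (-0.86 ± 0.37, adjusted p = 0.167) completed the 5 members with an unadjusted p under 0.05 (16.1%, against 23.2% of all genes). In the immunoproteasome Psme1 (-0.41 ± 0.26, adjusted p = 0.366), Psmb8 (0.25 ± 0.37, adjusted p = 0.739) and Psme2 (0.16 ± 0.33, adjusted p = 0.815) had the lowest p, and in class II H2-Ab1 (-1.10 ± 0.56, adjusted p = 0.250) and Ciita (-1.07 ± 0.61, adjusted p = 0.312) followed H2-DMa. Medians were -0.21 for class I, 0.01 for the immunoproteasome and -0.38 for class II, beside -0.02 for all genes, with 20 of 31 folds below 0, against 51.1%. Leaving out R172H 3 took the class I median to 0.03, class II ranged from -0.64 without R270H 1 to -0.18 without R270H 4, and the immunoproteasome from -0.10 without R172H 2 to 0.21 without R172H 3. Tap1, the partner chain of Tap2, read -0.36 ± 0.34, adjusted p = 0.564, so of the transporter 1 chain passed and the other did not. The difference between the folds of these chains was not tested.

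DESeq2 (adjusted p = 0.00485 for Tap2 and 0.00658 for Cd1d1) and limma voom called the same 2 members. Leaving out 1 library at a time kept Tap2 past the threshold in 12 of 18 fits, with the largest adjusted p at 0.0725 without R270H 4, and Cd1d1 in 11 of 18, with 0.0933 without R270H 3. Neither passed without R172H 1, R172H 3, R172H 4, R270H 3 or R270H 4, Cd1d1 alone was lost without R172H 5 or R270H 5, and Tap2 alone without R270H 1. With the kind of title as a covariate, which only the p53 het tumours can estimate, the folds were -1.32 for Tap2 (adjusted p = 0.504) and 2.10 for Cd1d1 (adjusted p = 0.512), and no member passed. Within the p53 het tumours, Tap2 read 25.99 and 32.1 CPM under titles with a serial number and 48.5 and 32.3 CPM under those without, and Cd1d1 54.0 and 41.4 CPM against 42.5 and 26.7 CPM. In both genes these differences ran opposite to the ones between R172H and R270H, with 2 tumours of each kind and no test. Of cell type markers, 1 of 11 macrophage markers (Cd68, lower) and 2 of 4 tested neutrophil markers (S100a8 and S100a9, higher) passed, and summed macrophage markers were 1260 to 3114 CPM in R270H against 1999 to 3018 CPM in R172H. Summed B cell markers were 1.27 to 18.2 CPM against 2.75 to 6.40 CPM, and dendritic cell markers 57.8 to 85.0 CPM against 52.3 to 88.3 CPM, and their part in the Cd1d1 difference was not tested.

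**Figure D3:**
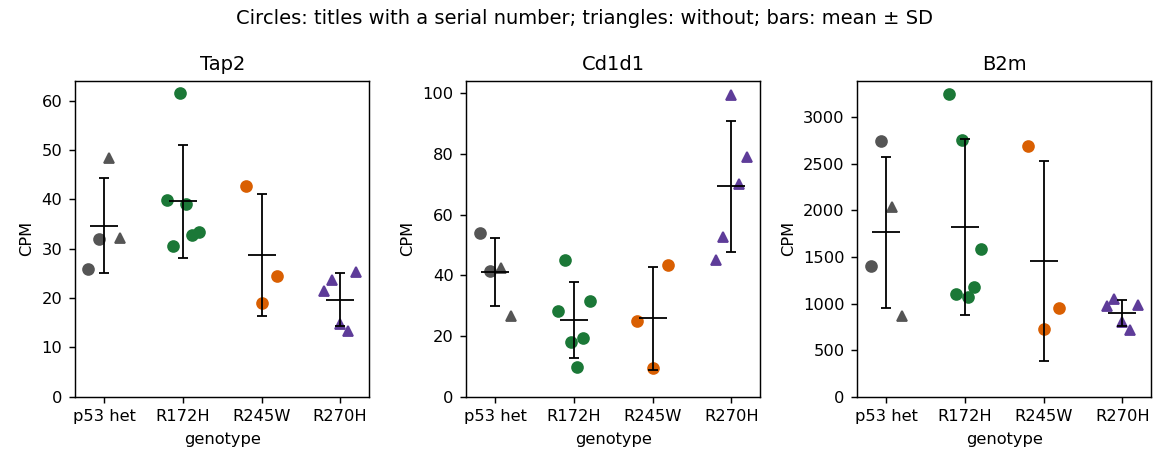
CPM of Tap2, Cd1d1 and B2m in each of the 18 tumours by genotype, with bars for mean ± SD and symbols for the kind of title. R270H tumours, at 13.3 to 25.2 CPM of Tap2 and 45.1 to 99.5 CPM of Cd1d1, share no value range with R172H tumours.

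Between R245W and R172H tumours 0 of 31 members passed with edgeR, DESeq2 or limma voom, against 0.155% of all genes, and 0 had an unadjusted p under 0.05, against 10.8%. H2-T23 (-0.76 ± 0.39, adjusted p = 0.504), Tap2 (-0.42 ± 0.29, adjusted p = 0.631) and Tap1 (-0.56 ± 0.41, adjusted p = 0.655) had the lowest p of class I. Psmb9 (-0.44 ± 0.49, adjusted p = 0.791), Psme2 (-0.30 ± 0.39, adjusted p = 0.827) and Psme1 (-0.19 ± 0.31, adjusted p = 0.860) came first in the immunoproteasome, and Ifi30 (-0.68 ± 0.43, adjusted p = 0.592), H2-DMa (-0.51 ± 0.43, adjusted p = 0.716) and Ciita (-0.85 ± 0.73, adjusted p = 0.718) in class II. Class medians were -0.28, -0.19 and -0.45 for class I, immunoproteasome and class II, with 26 of 31 folds below 0, against 50.3% of all genes. With 1 library left out, class I lay between -0.81 (without R245W 1) and -0.03 (without R245W 2), the immunoproteasome between -0.35 (without R172H 2) and -0.04 (without R245W 3), and class II between -1.07 (without R245W 3) and -0.15 (without R245W 2). No member was without overlap, against 5.24%.

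Between R245W and R270H tumours 0 of 31 members passed with edgeR, DESeq2 or limma voom, against 1.24% of all genes, and 2 had an unadjusted p under 0.05 (6.45%, against 18.4%). These were Cd1d1 (-1.45 ± 0.50, adjusted p = 0.138), the 1 member without overlap (12.9% of all genes), and H2-T23 (-0.89 ± 0.40, adjusted p = 0.247), followed in class I by Tap2 (0.57 ± 0.29, adjusted p = 0.314). Psme2 (-0.46 ± 0.41, adjusted p = 0.574), Psme1 (0.22 ± 0.31, adjusted p = 0.752) and Psmb9 (-0.26 ± 0.50, adjusted p = 0.822) led the immunoproteasome, and Ctss (-0.62 ± 0.40, adjusted p = 0.425), H2-DMa (0.36 ± 0.43, adjusted p = 0.704) and H2-Aa (-0.55 ± 0.69, adjusted p = 0.712) class II. Cd1d1 read 25.9 ± 17.0 CPM (SD, n = 3) in R245W, close to the 25.3 CPM of R172H. Class medians were -0.14, -0.17 and -0.12, and 20 of 31 folds were below 0, against 51.5%. All 3 medians took either sign with 1 library left out. Class I ran from -0.69 without R245W 1 to 0.21 without R245W 2, and was also above 0 without R270H 2. The immunoproteasome ran from -0.40 without R245W 1 to 0.07 without R245W 3, and class II from -0.62 without R245W 3 to 0.09 without R245W 2, and was above 0 without R245W 1 too.

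Genes around the members, from a list of 50 chaperones, standard proteasome subunits, interferon signalling genes, partners of Nlrc5 and Ciita, endosomal proteases and costimulatory or inhibitory ligands, seldom passed the test. Of these, 47 had a row and 44 were tested. In R270H against R172H, 3 of 44 passed, beside 5.28% of all genes: Nfyc, a subunit of the factor that binds the Y box (-0.54 ± 0.12, adjusted p = 0.0217), Psme3, the nuclear proteasome activator (-0.56 ± 0.15, adjusted p = 0.0381), and Ctsl, an endosomal cathepsin (0.77 ± 0.20, adjusted p = 0.0326), with the proteasome assembly factor Pomp next (0.61 ± 0.18, adjusted p = 0.0598). Nfyc read 30.5, 28.5, 19.99, 24.9 and 26.6 CPM in R270H 1 to 5 and 33.6 to 46.0 CPM in R172H. Ctsl read 278, 240.4, 282, 259 and 209 CPM against 122.5 to 169.6 CPM, so neither gene overlapped between these genotypes, and p53 het tumours read 113.4, 227, 156 and 202.4 CPM of Ctsl. In the other 5 contrasts 0 of 44 passed. The lowest p in R172H against p53 het were Psmb5 (-1.20 ± 0.35, adjusted p = 0.198), Irf2 (0.78 ± 0.24, adjusted p = 0.205) and Sec61b (-1.02 ± 0.33, adjusted p = 0.249). For R245W against p53 het they were Sec61b (-1.23 ± 0.41, adjusted p = 0.249) and Irf2 (0.78 ± 0.27, adjusted p = 0.264), for R270H against p53 het Nfyc (-0.63 ± 0.14, adjusted p = 0.129), for R245W against R172H Jak1 (-0.76 ± 0.23, adjusted p = 0.228) and for R245W against R270H Psme3 (0.70 ± 0.17, adjusted p = 0.0556). At an unadjusted p under 0.05 these contrasts held 5, 6, 6, 3 and 6 of 44 genes, beside 12.3, 12.5, 11.5, 10.8 and 18.4% of all genes. Ifng, the cytokine that induces most members, read at most 0.339 CPM in a tumour.

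Across the 18 tumours 6 of 9 class II members were correlated with Ciita at an adjusted p under 0.05, all with r above 0. Of the 20615 other genes tested, 4.81% had an r of either sign at least as large as the smallest of these (0.53). The chains were among them: H2-Ab1 (r = 0.85, rho = 0.86, adjusted permutation p = 0.00135 and 0.00120), Cd74 (r = 0.81, rho = 0.82), H2-DMa (r = 0.80, rho = 0.80), H2-Eb1 (r = 0.77, rho = 0.85) and H2-Aa (r = 0.72, rho = 0.79), all with adjusted p at or under 0.0042. H2-DMb1 also passed (r = 0.53, rho = 0.55, adjusted permutation p = 0.0463 and 0.0382). Ciita was not correlated at this threshold with H2-Oa (r = 0.48, rho = 0.40), Ifi30 (r = 0.21, rho = 0.26) or Ctss (r = -0.06, rho = 0.00). Permutation p-values used 100000 resamples of log2 CPM and were adjusted over the 60 relations computed. The median r of the 9 genes was 0.72 over all tumours, 0.75 within the 11 tumours with a serial number, 0.85 within the other 7, and 0.63 without R172H 3 and R270H 3, the 2 tumours farthest from the median of Ciita.

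Nlrc5 was correlated with H2-Q4 (r = 0.84, rho = 0.86, adjusted permutation p = 0.00120 and 0.00120), H2-K1 (r = 0.79, rho = 0.77), H2-Q7 (r = 0.76, rho = 0.72), H2-Q6 (r = 0.71, rho = 0.64), Tap1 (r = 0.66, rho = 0.61), H2-D1 (r = 0.64, rho = 0.61), B2m (r = 0.56, rho = 0.68), H2-T23 (r = 0.55, rho = 0.40) and H2-T22 (r = 0.54, rho = 0.41). These 9 of 15 class I members passed on r. Of all other genes 5.7% had an r with Nlrc5 of either sign at least as large as the smallest called (0.54). H2-T22 and H2-T23 did not pass on rho, and Tap2 (r = 0.51, rho = 0.62) passed on rho alone. Of the immunoproteasome 1 of 5 passed, Psmb9 (r = 0.77, rho = 0.77, adjusted permutation p = 0.00146 and 0.00202). Cd1d1 (r = -0.01, rho = -0.08) and Erap1 (r = 0.05, rho = 0.02) did not. The class I median r was 0.55 over all tumours, 0.68 and 0.44 within the 2 kinds of title, and 0.61 without R245W 2 and R270H 2, the farthest from the median of Nlrc5. Without them H2-K1 kept r = 0.77 and H2-Q4 r = 0.80.

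**Figure D4:**
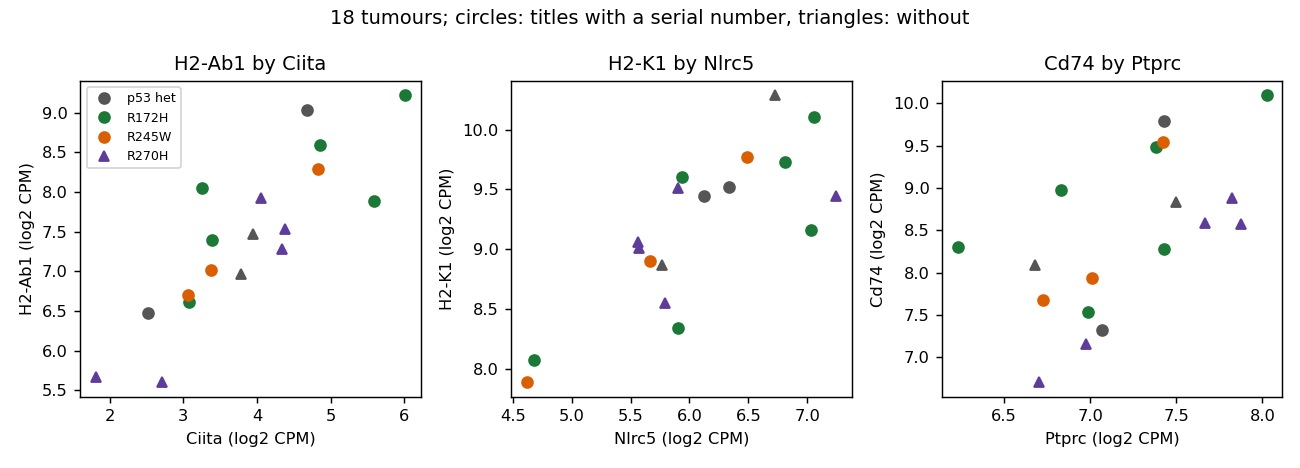
Log2 CPM of H2-Ab1 by Ciita, H2-K1 by Nlrc5 and Cd74 by Ptprc in 18 tumours, coloured by genotype and shaped by kind of title. H2-Ab1 with Ciita (r = 0.85) and H2-K1 with Nlrc5 (r = 0.79) rise together over the 18 tumours, and Cd74 with Ptprc (r = 0.60) more loosely; no r was computed within a genotype.

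Leukocyte RNA varied with many of the same members. Ptprc was correlated with 9 of 16 class I, 2 of 5 immunoproteasome and 4 of 10 class II members at an adjusted p under 0.05. Of all other genes 5.39% had an r with Ptprc of either sign at least as large as the smallest called (0.53). Among the members the relation was closest for H2-Aa (r = 0.74, rho = 0.71, adjusted permutation p = 0.00360 and 0.00580), H2-T23 (r = 0.72, rho = 0.74, adjusted permutation p = 0.00420 and 0.00367) and Psmb9 (r = 0.69, rho = 0.68, adjusted permutation p = 0.00854 and 0.0116). Nlrc5 itself followed Ptprc (r = 0.62, rho = 0.55, adjusted permutation p = 0.0190 and 0.0382), and Ciita did not pass (r = 0.38, rho = 0.46, adjusted permutation p = 0.154 and 0.0881). Without R172H 2 and R172H 3, the tumours farthest from the median of Ptprc, the class I median r fell from 0.54 to 0.39 and the immunoproteasome median from 0.47 to 0.13, while the class II median went from 0.46 to 0.53. Within the 11 tumours with a serial number and the other 7, the medians were 0.56 and 0.49 for class I, 0.53 and 0.52 for the immunoproteasome and 0.52 and 0.74 for class II. How far the relations with Nlrc5 and Ciita reflect leukocytes was not tested.

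The ratio of the 2 chains of I-A did not overlap between the kinds of title. H2-Aa counts divided by H2-Ab1 counts of the same library were 0.464 to 0.819 (median 0.697) in the 11 tumours with a serial number and 1.001 to 1.89 (median 1.49) in the 7 without. Within p53 het, where both kinds occur, the ratio also separated them, at 0.762 and 0.680 against 1.49 and 1.001. The kinds overlapped for Tap1 over Tap2, H2-DMa over H2-DMb1 and Psme1 over Psme2. Over the pairs within a class, leaving out H2-Oa, which had no count in some tumours, 4 of 36 in class II and 6 of 120 in class I had ratios without overlap between the kinds, among them H2-K1 over B2m (0.228 to 0.527 against 0.536 to 0.751) and Tap2 over H2-T22 (0.583 to 1.40 against 0.281 to 0.551), and 0 of 10 in the immunoproteasome. In all this was 10 of 166 pairs (6.02%), beside 1.16% of all pairs among 18967 tested genes with a count in every tumour. These pairs were picked out after their values were seen and carry no test, and those printed for class I hold B2m and Tap2, whose levels in R270H lay below all R172H tumours.

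In cell line 14, Trp53 read 94.9 CPM in the control and 30.6 CPM after p53 siRNA, a ratio of 0.322 (exact counting interval 0.307 to 0.338, at 95%). With 1 library per condition there is no replicate check, and intervals cover counting error only. Of the 25 members at 1 CPM or more in either library, 0 changed by 1.5-fold on the CPM plus 1 scale, against 156 of 13556 genes (1.15%). By library totals the counting interval of the ratio was below 1 for 9 and above 1 for 3 of the 25. Among the 38 genes of the surrounding list at 1 CPM or more it was below 1 for 13 and above 1 for 15. The share over all genes was not computed, so these counts do not show whether intervals off 1 are particular to the members. For the members the counts were 7 and 4 with TMM factors, and 5 and 8 with DESeq2 size factors. Under all 3 scalings the interval was below 1 for Tap1, Nlrc5, H2-T22, H2-M3 and H2-DMb1 and above 1 for H2-K1, H2-Q6 and Ifi30. Tap2, Tapbp, Tapbpl and H2-T23 were below 1, and H2-D1, B2m, Psmb10, Psme2 and Cd74 above 1, under some scalings and not others. The ratios below are by library totals. Summed class I counts were 1200 CPM in control and 1155 CPM after siRNA (ratio 0.962, interval 0.953 to 0.972). The ratio of immunoproteasome sums was 0.9996 (0.974 to 1.03), and class II sums were 46.7 and 51.4 CPM (1.10, 1.05 to 1.16). Tap1 read 18.7 and 14.2 CPM (0.759, 0.698 to 0.825), H2-T22 124.3 and 98.8 CPM (0.795, 0.770 to 0.821), Nlrc5 5.95 and 4.76 CPM (0.8002, 0.690 to 0.928), and H2-M3 35.2 and 30.4 CPM (0.865, 0.816 to 0.918). The classical chains moved less, with H2-K1 at 100.1 and 106.4 CPM (1.06, 1.03 to 1.10), H2-D1 at 217.0 and 217.7 CPM and B2m at 445.2 and 441.7 CPM. H2-Q6, from 0.671 to 1.21 CPM (43 and 89 counts; ratio 1.81, 1.24 to 2.67), had the largest rise in ratio. Of 38 genes of the surrounding list at 1 CPM or more, 0 changed by 1.5-fold. Chosen after their values were seen, 2 interferon signalling genes were lower after siRNA: Irf9 (103.1 and 72.8 CPM; ratio 0.706, 0.681 to 0.732) and Irf1 (99.5 and 73.5 CPM; 0.739, 0.713 to 0.767).

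Levels per length (CPM per kb of exon) set the line beside the tumours, which differ in culture, library and depth. It is 1 line with no test. How many of all genes lie outside the tumours' range in the line was not computed. The counts of members below or above all tumours are therefore not read as particular to them. For class II the control library of the line was below all 18 tumours in 9 of 10 members. H2-Aa had 2 counts in the control and 0 after siRNA, H2-Eb1 had 1 and 2, and H2-Oa 0 in both, all within the limit of 3 counts, while Cd74 read 3.48 CPM per kb against 63.4 to 679 in the tumours, and Ciita 0.0442 against 0.318 to 7.03. Ptprc had 46 and 30 counts in the 2 libraries of the line. Over 3 counts in both were 10 of 11 macrophage, 5 of 8 dendritic cell, 3 of 11 T and NK cell and 2 of 5 B cell markers. Their summed levels in the control were 34.7, 5.24, 7.85 and 0.359 CPM, against 1260 to 3114, 37.7 to 88.3, 1.87 to 93.4 and 1.27 to 18.2 CPM in the tumours, so the T and NK cell sum lay within the tumours' range and the other 3 below it. Lyz2 (1318 and 1502 counts), Gzmb (469 and 471), Cd68 (302 and 289) and Adgre1 (289 and 294) gave most of the counts, while Cd3e, Cd3g, Cd8b1 and Clec9a were among the markers at 0 in both libraries. For class I, 9 of 16 members were below all tumours, among them H2-K1 (34.1 against 77.8 to 399.6 CPM per kb), H2-D1 (84.1 against 159.1 to 538.2), B2m (517.7 against 830.0 to 3773) and Nlrc5 (0.700 against 2.79 to 19.6). H2-T22 (36.4 against 6.42 to 30.99) and H2-M3 (24.5 against 5.89 to 15.9) were above all 18 tumours. Of the immunoproteasome, Psmb8 (2.36 against 6.07 to 28.5) and Psmb9 (0.473 against 2.18 to 11.2) were below all tumours, while Psmb10, Psme1 and Psme2 lay within their range. On the same scale the order of tumour medians was B2m (1267), H2-D1 (297.7), Cd74 (218.7), H2-K1 (211.9), Ctss (172.3) and Ifi30 (138.8), with H2-Oa lowest (0.189). All B2m values lay above all H2-D1 values, and the other named neighbours from H2-D1 to Ifi30 overlapped in range.

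**Figure D5:**
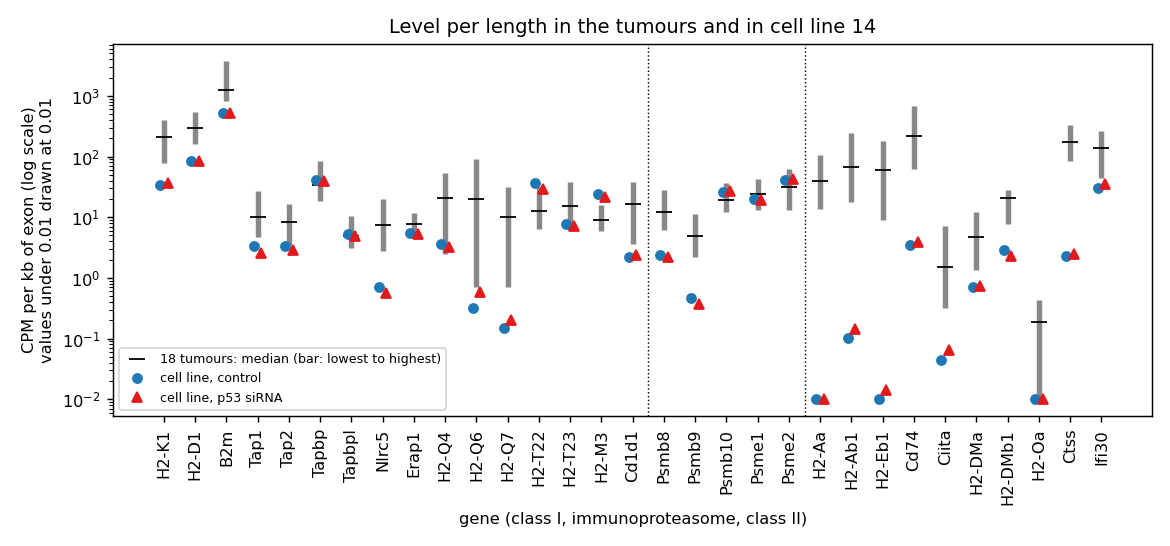
CPM per kb of exon on a log scale for each member, with a bar from the lowest to the highest of the 18 tumours and a tick at their median, a circle for the control and a triangle for the siRNA library of cell line 14; values under 0.01 are drawn at 0.01. Class II chains lie far below the tumours in the line, and H2-T22 and H2-M3 in the control lie above them.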

How the data were processed

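Total RNA of frozen tumours and of the line was sequenced with Illumina protocols, per the labels' protocols. The reads were aligned to GRCm38 with STAR 2.6.0b and DESeq2 was used, per the submitters' processing notes. The authors deposited 1 table of raw counts per gene ID (20 columns, all used). The counting program, its annotation and its strand setting are not given in the sources used here. Of 49585 IDs, 49326 matched a symbol.

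Groups follow the labels. The tumours' labels do not say that each came from its own mouse, so p-values measure the spread between these samples. Counts were fitted in R 4.3.3 with edgeR 4.0.16: filterByExpr (minimum count 10, minimum total count 15; 20616 genes), TMM, and 1 quasi-likelihood model of 4 genotype means (14 residual degrees of freedom). Each contrast had its p-values adjusted (Benjamini-Hochberg) over all genes tested, and the SE is the fold over the square root of F. Log2 CPM used a prior count of 2. The members and lists were chosen with earlier results of these data known. The statistics in the text cover the members past the threshold, and the 3 lowest p of each class in each contrast, plus up to 4 of the surrounding list. CPM is counts over the library total, with a limit of 3 counts and exact 95% intervals. Exon lengths and overlaps come from GENCODE M21 on GRCm38. The script was tested on simulated data.

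Alternatives were DESeq2 1.42.0, edgeR with DESeq2 size factors, limma voom (limma 3.58.1), no filter on low counts, only the groups compared, p53 het 1 and 2 only, the kind of title as a covariate, summed heavy chain counts, each library left out and, added after the data were seen, p53 het 3 and 4 only. For the line they were TMM and DESeq2 factors.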

Additional observations from a re-analysis of the deposited data

Results flagged for a closer look

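Of 102 groups of 4 or more tumours examined, 1 per member or class sum and genotype, 7 held a tumour far from the others of its genotype by Dixon's criterion at 95%, where chance gives about 1 in 20 groups. R172H 3 was the far tumour in 5 of them, each time on the high side: Tap2 at 61.6 CPM, Tapbpl at 25.1 CPM, H2-T22 at 105.8 CPM, H2-T23 at 110.2 CPM and Psmb10 at 63.23 CPM. R270H 2 was far above the other R270H tumours for Nlrc5, at 166.8 CPM, and for H2-Q4, at 109.6 CPM. R172H 3 also had the highest Ptprc of all tumours (271.7 CPM), whose part was not tested.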

How the results depend on the processing

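Of 1124 alternative values, 1085 kept their direction and side of the threshold or moved by less than the spread, 24 moved, 15 lost the threshold and 0 reversed a call. A class median counted as kept when it moved by less than the SD between tumours, even if its sign changed, and 461 of 462 did. All medians but that of the immunoproteasome in R245W against p53 het were smaller than that SD, so this count does not show stability. Of single genes in the tumours, only Tap2 and Cd1d1 in R270H against R172H had a call to lose. No missense genotype gave a called member against p53 het under any alternative. For R270H against R172H the members called numbered 0 to 2 when 1 library was left out (0 without R172H 1, 3 or 4 or R270H 3 or 4, 1 without R172H 5 or R270H 1 or 5) and 0 with the kind of title as a covariate, which also moved the immunoproteasome median to -0.47. Fewer samples and, for the covariate, an estimate from 4 tumours go with these; the cause was not tested. For the line, the log2 ratio of summed class I counts was -0.06 by library totals, -0.025 with TMM and -0.0092 with DESeq2 size factors, and that of the immunoproteasome 0.045 with DESeq2 size factors. Class medians against p53 het when 1 library was left out ran from -1.02 to -0.24 for class I, -0.92 to -0.45 for the immunoproteasome and -0.92 to -0.04 for class II in R245W. Counts over all genes depended more on the tool: for R172H against p53 het 16 genes passed with edgeR, 307 with DESeq2 and 0 with limma voom. No paired analysis was possible because the labels number no replicates, and the numbers used here only name the tumours. Members near the limit of 3 counts (H2-Oa in tumours, H2-Aa and H2-Eb1 in the line) allow no fold. Copies with shared sequence and antisense neighbours may exchange counts.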
